A study of Mus musculus with 32 samples.

Results

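Muscle of Sf1-Cre; Sirt1loxP/loxP mice was set against muscle of control mice at lights on, which is Zeitgeber time 0 (ZT0, in hours after lights on). The 8 ZT0 libraries, 4 mutant and 4 control, are members of a series of 32 libraries, and they were chosen by the genotype and the time in their labels. Of 16634 genes in the deposited table, the 11275 with at least 1 FPKM in 4 or more of these 8 libraries were tested. FPKM is the number of sequenced fragments scaled by transcript length and library size, so levels are per length. At the edge of this filter, 184 genes reached 1 FPKM in exactly 4 libraries and 283 genes, left out, in exactly 3.

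RNA came from gastrocnemius, a hind limb muscle made mostly of fast fibres, taken at an age of 10 weeks from mice of mixed genetic background. The mutant group carried the Sf1-Cre transgene and floxed alleles of Sirt1, and the control group, per the series description, carried the floxed alleles without Cre. Both genotypes were also taken at ZT6, ZT12 and ZT18, with 4 mice in each of the 8 groups. Sf1-Cre is driven by the promoter of the gene for SF1, which is active in the ventromedial hypothalamus and also in the adrenal cortex, the gonads and the pituitary, so the deletion was not directed at the muscle that was measured. Every mutant mouse had both Cre and the deletion, and their parts in a difference cannot be told apart.

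SIRT1 is a deacetylase that uses NAD and couples the energy state of a cell to the acetylation of histones and transcription factors. Neurons of the ventromedial hypothalamus that express SF1 act on muscle through sympathetic nerves and hormones, and they are known for control of glucose uptake and energy expenditure. Muscle has a clock of its own, in which the factors CLOCK and BMAL1 (encoded by Arntl) turn on the Per and Cry repressors and the Nr1d genes. Lights on is the start of the resting phase of a mouse, which feeds mostly in the dark.

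At lights on, 2 genes differed between genotypes, both higher in mutants, and no gene was lower at an adjusted p under 0.05. They are Nr6a1, which encodes an orphan nuclear receptor known for its work in the embryo and in germ cells, and Gm13490, annotated by GENCODE as a long intergenic RNA. They make up 0.0177% of the genes tested in limma, a linear model with 1 mean for each group and a spread shared by all 32 libraries. The 300 bases around each annotated start of these genes are shown because these were the only genes that passed. They run from 250 bases before to 50 bases after the start, on the minus strand of GRCm38.p6 in the RefSeq annotation, and both genes were matched by symbol. Nr6a1 has a pair of starts, at chr2:38926412-38926711 and chr2:38784466-38784765, and Gm13490 has one at chr2:51731960-51732259. Capitals mark the only motif that was found.
Nr6a1, first start: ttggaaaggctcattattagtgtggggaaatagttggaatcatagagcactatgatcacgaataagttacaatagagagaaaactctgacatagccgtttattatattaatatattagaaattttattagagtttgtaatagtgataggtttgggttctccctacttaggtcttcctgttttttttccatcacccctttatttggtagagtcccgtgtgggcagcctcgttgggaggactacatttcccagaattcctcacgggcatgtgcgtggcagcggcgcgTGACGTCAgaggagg
Nr6a1, second start: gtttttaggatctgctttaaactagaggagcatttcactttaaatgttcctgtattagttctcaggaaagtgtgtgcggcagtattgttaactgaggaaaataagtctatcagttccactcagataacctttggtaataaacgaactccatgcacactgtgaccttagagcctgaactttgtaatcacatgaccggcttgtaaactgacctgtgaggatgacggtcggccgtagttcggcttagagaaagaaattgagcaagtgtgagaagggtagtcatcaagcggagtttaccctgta
Gm13490: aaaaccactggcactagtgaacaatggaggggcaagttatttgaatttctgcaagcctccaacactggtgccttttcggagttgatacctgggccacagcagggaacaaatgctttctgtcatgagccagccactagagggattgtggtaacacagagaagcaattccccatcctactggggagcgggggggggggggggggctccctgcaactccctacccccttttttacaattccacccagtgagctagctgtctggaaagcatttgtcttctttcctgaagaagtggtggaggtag
The capitals are TGACGTCA, the full cAMP response element, which was added to the search after the sequences were seen. It occurs in 1.79% of 32851 promoter windows of the same length. The E-box CACGTG bound by CLOCK and BMAL1, the D-box TTATGTAA, the glucocorticoid half-site AGAACA and the TATA box TATAAA were searched on both strands and have no match in these 3 windows. They occur in 7.15%, 0.938%, 19.0% and 13.6% of all windows.

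Nr6a1 (XLOC_012290) lies on chromosome 2 from 38723374 to 38926461 in mm10. Its level was 2.39, 2.03, 3.14 and 2.02 FPKM in mutant libraries 0 to 3, against 1.16, 0.859, 0.764 and 0.902 FPKM in control libraries 0 to 3. The lowest mutant library lay above the highest control library, and of the controls only library 0 reached 1 FPKM. Mutants averaged 2.40 ± 0.528 FPKM and controls 0.923 ± 0.171 FPKM (SD, n = 4 each), a log2(FPKM + 1) difference of 0.81 (SE 0.0952, limma adjusted p = 3.52e-05). An antisense gene, Nr6a1os, overlaps Nr6a1 in the RefSeq annotation. The library protocol keeps strand, but the sources used here do not say whether counting used strand, so reads of this pair may not be separated. The gap between Nr6a1 and its next RefSeq neighbour, Nr5a1, is 8826 bases, and Nr5a1, the gene for SF1 itself, was not analysed here.

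Gm13490 (XLOC_012305) lies on the same chromosome from 51656966 to 51732009. Mutant libraries had 2.36, 1.76, 2.17 and 1.11 FPKM, against 0.0976, 0, 0.0382 and 0.0455 FPKM in control libraries. All 4 mutant libraries were above 1 FPKM and all 4 control libraries close to 0, so the gene passed the filter on low values through the mutant group and a fold is not given. The log2(FPKM + 1) difference was 1.43 (SE 0.206, limma adjusted p = 0.000932). Of the limits, Gm13490 did not pass with library weights (adjusted p = 0.145) and Nr6a1 did not pass when the spread was taken from the ZT0 libraries alone (adjusted p = 0.536). Neither gene reaches a mean of 5 FPKM, and with that filter no gene passed in limma, and 659 genes had an unadjusted p under 0.05.

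Both differences were of like size at the other times. For Nr6a1 the log2 difference was 0.71 at ZT6, 0.74 at ZT12 and 0.63 at ZT18, and the ZT0 difference exceeded their mean by 0.12 (limma adjusted p = 0.727). For Gm13490 it was 1.31, 1.32 and 1.30, and the ZT0 difference exceeded their mean by 0.12 (adjusted p = 0.890).

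In a list of 36 genes around the called genes on chromosome 2, 28 were tested, with 14 higher and 14 lower in mutants and a median difference of 0.00. Since the list holds both called genes, its count of 2 is fixed by the choice of members. Of its other genes, Arl5a, a small GTPase of the Golgi, was at 11.6 ± 0.715 FPKM in mutants and 9.52 ± 0.535 FPKM in controls (SD, n = 4 each), 0.26 higher on the log2 scale (limma adjusted p = 0.539). Lypd6, a modulator of nicotinic receptors, was at 1.51, 1.45, 1.36 and 1.44 FPKM in mutant libraries and 2.99, 1.58, 2.66 and 2.26 FPKM in control libraries, a difference of -0.45 (adjusted p = 0.429). The groups did not overlap for Arl5a and Lypd6, as for 2.72% of all genes tested. The chromatin genes Mbd5 and Epc2 differed by -0.18 and -0.20 (adjusted p = 0.515 and 0.535). In limma, Arl5a, Lypd6, Mbd5 and Epc2 of the 28 tested members each had an unadjusted p under 0.05, which 8.73% of all genes reached. The Lypd6 difference was -0.41 at ZT6, -0.38 at ZT12 and -0.17 at ZT18. Across all 889 tested genes of chromosome 2, 7.99% had an unadjusted p under 0.05, against 8.73% of all genes tested. That share covers the whole chromosome and does not describe the genes around the called ones.

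**Figure D1:**
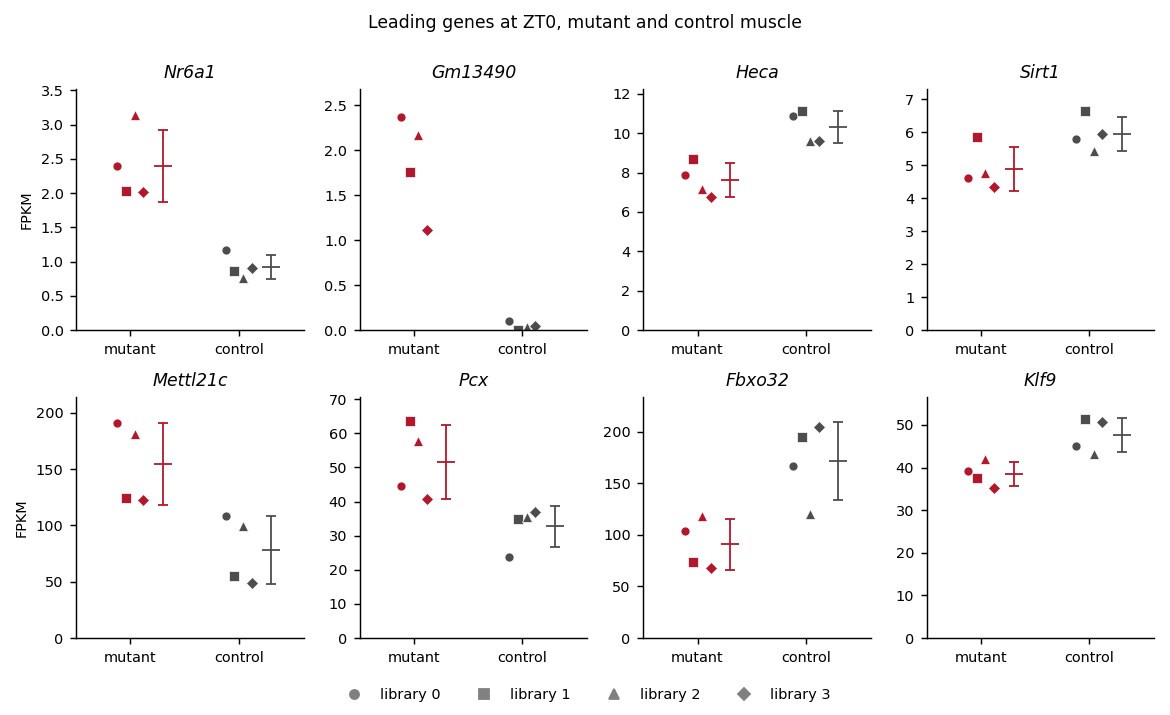
FPKM (vertical axes, from 0) of 8 genes in the 4 mutant libraries (red, left) and the 4 control libraries (grey, right) at ZT0, with 1 symbol for each library number and the mean ± SD beside them, except for Gm13490, which is listed at 0 in 1 control library. The groups overlap in Sirt1. They do not overlap in the called genes Nr6a1 and Gm13490, nor in the uncalled genes Heca, Mettl21c, Pcx, Fbxo32 and Klf9. Heca, Mettl21c and Pcx were chosen among genes without overlap, which are 2.72% of all genes tested.

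Sirt1, the targeted gene, was present in muscle of both genotypes. Sirt1 (XLOC_002098, chromosome 10, 63319005 to 63339035) was at 4.62, 5.86, 4.76 and 4.33 FPKM in mutant libraries and 5.80, 6.65, 5.43 and 5.94 FPKM in control libraries. Mutant libraries 0, 2 and 3 lay below every control library, and mutant library 1 lay among the controls. The difference was -0.24 on the log2(FPKM + 1) scale (2-sided exact permutation test, p = 0.0857, where 0.0286 is the smallest p that 4 against 4 allows). In limma, which takes its spread from all 32 libraries, p was 0.0135 before adjustment and 0.507 after it. Without mutant library 1, the one among the controls, the difference was -0.32 and the permutation p was 0.0286. This is the smallest that 3 against 4 allows and was fixed by leaving out that library. With any other library left out, the permutation p ran from 0.0857 to 0.171. The ZT0 difference minus the mean of the other times was -0.23, with a limma adjusted p of 0.529. These values describe muscle and do not check a deletion directed at other cells.

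Beyond the called genes no difference passed, and the count with an unadjusted p under 0.05 depended on the fit. An unadjusted p under 0.05 was reached by 984 genes (8.73%), 487 of them higher (4.32%) and 497 lower (4.41%) in mutants. With the spread taken from the ZT0 libraries alone, only 386 of the 11275 genes reached it, 196 of them higher. With each library centred on its median, 630 of 1030 such genes were higher, and with quantile normalisation 592 of 1045. Leaving out 1 library moved the count of 984 to between 634 (without control library 1) and 1623 (without mutant library 3), and the share that was higher, 49.5%, to between 33.4% (without mutant library 2) and 65.9% (without mutant library 3). The groups did not overlap in 136 genes that were higher (1.21%) and 171 that were lower (1.52%). Over all genes tested, 5453 (48.4%) had a higher mean in mutants and the median difference was -0.01. The p-values compare each difference with the spread within groups of mice, and in bulk muscle fewer cells of a type and less RNA per cell cannot be told apart.

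Among genes with a mean of at least 5 FPKM and no overlap between groups, the 10 higher and 10 lower genes with the smallest p were taken. Their limma adjusted p ran from 0.0589 to 0.381, so none passed. Closest was Heca (chromosome 10), the mouse relative of the Drosophila gene headcase. It was at 7.88, 8.70, 7.18 and 6.75 FPKM in mutant libraries and 10.9, 11.1, 9.59 and 9.60 FPKM in control libraries, a difference of -0.39 (SE 0.0749, adjusted p = 0.0589). It passed without mutant library 1 (-0.45, adjusted p = 0.0122), and over the other alternatives its adjusted p ran from 0.0530 to 0.975.

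Of the 10 higher genes, Pcx, Mmab and Qdpr encode metabolic enzymes. Pyruvate carboxylase (Pcx), which makes oxaloacetate from pyruvate, was at 44.6, 63.6, 57.9 and 40.7 FPKM in mutant libraries and 23.9, 34.8, 35.4 and 37.0 FPKM in control libraries, a difference of 0.64 (adjusted p = 0.355). Mmab, a mitochondrial enzyme that makes the cobalamin cofactor of propionate breakdown, was at 15.4 ± 1.28 FPKM in mutants and 11.6 ± 0.621 FPKM in controls (difference 0.38, SD, n = 4 each). Qdpr, which regenerates tetrahydrobiopterin, was at 47.2 ± 1.74 FPKM in mutants and 38.3 ± 1.68 FPKM in controls (difference 0.29). Gpd1, the cytosolic glycerol-3-phosphate dehydrogenase, is named here as a member of the adipocyte list and was at 285 ± 42.2 FPKM in mutants and 204 ± 13.1 FPKM in controls (difference 0.47, adjusted p = 0.381).

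The largest difference among the 20 genes was in Mettl21c, a lysine methyltransferase of skeletal muscle. It was at 191, 125, 181 and 122 FPKM in mutant libraries and 109, 54.7, 99.3 and 49.1 FPKM in control libraries. Every mutant library lay above every control library, which was a condition for its choice. Means were 155 ± 36.4 FPKM in mutants and 78.0 ± 30.4 FPKM in controls (SD, n = 4 each), a difference of 1.04 (SE 0.246, adjusted p = 0.355). In its list of 15 genes, methyltransferases together with Apobec2, Vcp and Eef1a2, 11 members were higher and 4 lower, and the median difference was 0.09. The median was 0.011 without mutant library 2, with 9 higher and 6 lower, 0.0073 with library weights, with 8 higher and 7 lower, and 0.05 among members with a mean of at least 5 FPKM. The others on the higher side were the mitochondrial ribosome genes Mrpl39 (0.26) and Mrm1 (0.37, a methyltransferase of mitochondrial rRNA), Narfl (0.25, cytosolic iron-sulfur assembly), the atypical kinase gene Mapk6 (0.29), the tetraspanin gene Tspan31 (0.39) and Smco1 (0.43).

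The lower genes included Heca, described above, and genes of chromatin and signalling. Kdm1a, the histone demethylase LSD1, was at 11.2, 12.1, 10.2 and 11.4 FPKM in mutant libraries and 14.0, 13.6, 12.4 and 14.8 FPKM in control libraries, a difference of -0.27 (adjusted p = 0.355). The endosomal adaptor gene Appl2 differed by -0.42 and the kinase gene Tnik by -0.32. The FoxO target Ccng2 (cyclin G2) differed by -0.35 and Crebrf, a regulator of the CREB3 factor, by -0.43. Fnbp4 (-0.47), Etl4 (-0.47) and the actin nucleator gene Jmy (-0.26) were also lower.

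Whether the ZT0 difference departs from the other times was tested in the same model, as the ZT0 difference minus the mean of those at ZT6, ZT12 and ZT18. No gene of 11273 passed in limma (0%), and 1038 (9.21%) had an unadjusted p under 0.05. The smallest p belonged to Qdpr (0.42), Heca (-0.40), Nme1 (0.55, a nucleoside diphosphate kinase), Zfp110 (-0.41) and Smco1 (0.51), each with an adjusted p of 0.327. Mettl21c differed by -0.35 at ZT6, 0.28 at ZT12 and -0.24 at ZT18, against 1.04 at ZT0. Its departure of 1.14 did not pass either (adjusted p = 0.327). Without mutant library 2, Nme1 passed (0.66, adjusted p = 0.0434).

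**Figure D2:**
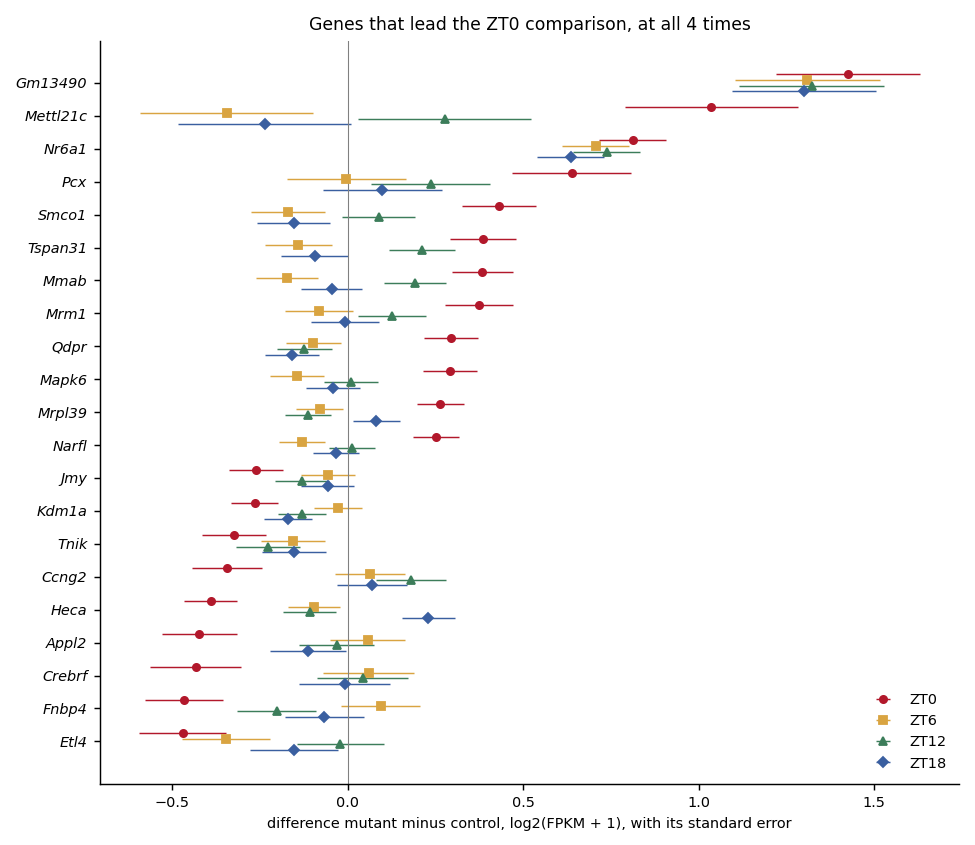
Difference between mutant and control muscle on the log2(FPKM + 1) scale with its standard error (horizontal axis) for the called genes, the 10 higher uncalled genes and 9 of the 10 lower ones (vertical axis), at ZT0 (red circles), ZT6, ZT12 and ZT18. Nr6a1 and Gm13490 lie to the right of 0 at all 4 times, and Mettl21c is at 1.04 at ZT0 but at -0.35 at ZT6 and -0.24 at ZT18.

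None of the 21 tested genes of the core clock list (24 members) passed at lights on. In mutants 5 were higher and 16 lower, with a median difference of -0.09 (-0.17 to -0.03 under the alternatives). An unadjusted limma p under 0.05 was reached by 3 of them (14.3%), against 8.73% of all genes tested. Among activators, Arntl was at 12.7, 8.09, 9.43 and 15.0 FPKM in mutant libraries and 9.37, 13.5, 11.2 and 14.4 FPKM in control libraries, with the groups overlapping throughout. Clock was at 7.22 ± 0.254 FPKM in mutants and 7.47 ± 0.744 FPKM in controls (SD, n = 4 each). The differences of -0.11 in Arntl and -0.04 in Clock turned sign when 1 library was left out.

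Of the repressors, Per1 was at 2.23, 3.25, 6.95 and 3.87 FPKM in mutant libraries and 4.98, 9.22, 4.52 and 7.24 FPKM in control libraries, a difference of -0.60 (limma adjusted p = 0.587). Mutant libraries 0, 1 and 3 lay below all controls and mutant library 2 lay among them. Per2 (-0.20) and Cry1 (0.09) overlapped as well. The Rev-erb genes Nr1d1 and Nr1d2, repressors of Arntl, had unadjusted p under 0.05. Nr1d1 was at 20.3, 7.40, 13.3 and 6.07 FPKM in mutant libraries and 14.2, 13.0, 24.5 and 18.1 FPKM in control libraries (-0.63, adjusted p = 0.535). Nr1d2 was at 21.5 ± 4.94 FPKM in mutants and 28.0 ± 4.01 FPKM in controls (-0.38, adjusted p = 0.479). On the higher side, the repressor gene Bhlhe41 was at 15.5 ± 2.93 FPKM in mutants and 12.0 ± 2.09 FPKM in controls (0.34, adjusted p = 0.546). Dbp, an output factor of the clock, was at 16.0, 18.0, 28.2 and 10.1 FPKM in mutant libraries and 16.0, 11.8, 14.0 and 12.1 FPKM in control libraries (0.33), with its highest value in mutant library 2.

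**Figure D3:**
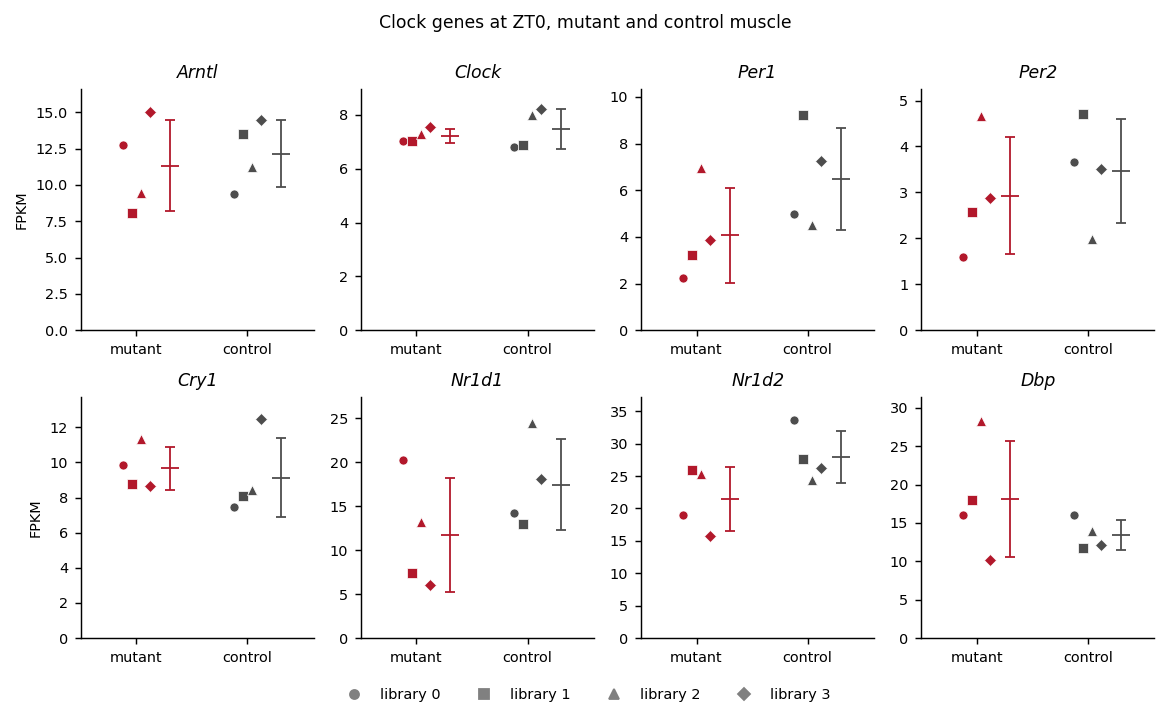
FPKM (vertical axes, from 0) of 8 clock genes in the 4 mutant libraries (red, left) and 4 control libraries (grey, right) at ZT0, with 1 symbol for each library number and the mean ± SD beside them. The groups overlap in all 8 genes, and mutant library 2 (triangle) is the highest mutant library for Per1, Per2, Cry1 and Dbp.

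The glucocorticoid list, genes known to respond to the adrenal hormone through its receptor, had 25 tested members of 28, of which 4 were higher and 21 lower in mutants. Their median difference was -0.30, against -0.01 over all genes, and it lay between -0.34 and -0.20 under the 16 alternatives. None passed, and 4 (16.0%) had an unadjusted p under 0.05, all of them lower, against 4.41% of all genes on that side. Fbxo32, a ubiquitin ligase of muscle atrophy, was at 104, 73.3, 119 and 67.5 FPKM in mutant libraries and 167, 195, 120 and 205 FPKM in control libraries. All mutant libraries lay below all controls, with mutant library 2 and control library 2 almost level, and the difference was -0.92 (SE 0.317, adjusted p = 0.479). Klf9, a transcription factor induced by the hormone, was at 39.1, 37.7, 42.1 and 35.3 FPKM in mutant libraries and 45.2, 51.3, 43.2 and 50.7 FPKM in control libraries, a difference of -0.30 (adjusted p = 0.442).

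Foxo3, a factor that turns on both atrophy ligases, differed by -0.39 (adjusted p = 0.381), and Trim63, the other ligase, by -0.46 (adjusted p = 0.535). Fkbp5 and Tsc22d3, which also answer to glucocorticoids, were nearly level, with differences of -0.10 and -0.05 that turned sign when 1 library was left out. Pdk4, the kinase that shuts off pyruvate oxidation in fasting, was at 190, 90.8, 85.5 and 31.4 FPKM in mutant libraries and 147, 104, 149 and 91.0 FPKM in control libraries (-0.53, adjusted p = 0.765), with mutants both above and below every control. In the list of ubiquitin ligases and atrophy genes, which shares Foxo3, Fbxo32 and Trim63, 6 of 22 were higher and 16 lower, with a median of -0.10, which was -0.16 without control library 2. Of the 22, only Foxo3, Fbxo32 and Trim63 had an unadjusted limma p under 0.05, which 8.73% of all genes reached. Mstn, the secreted inhibitor of muscle growth, was at 80.8 ± 7.42 FPKM in mutants and 67.2 ± 18.3 FPKM in controls (0.29, adjusted p = 0.722).

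Of 47 nuclear genes of oxidative phosphorylation, the respiratory chain that makes ATP, 43 were higher and 4 lower in mutants, with a median of 0.12 and none called. An unadjusted p under 0.05 was reached by 3 (6.38%), a smaller share than the 8.73% of all genes. With quantile normalisation 31 were higher and 16 lower, with a median of 0.04, and without control library 2 it was 36 and 11, with a median of 0.062. Without control library 0 the median was 0.18. Ndufb5 of complex I was at 374, 381, 471 and 370 FPKM in mutant libraries and 387, 318, 291 and 295 FPKM in control libraries (0.31, adjusted p = 0.507), with mutant library 2 the highest. Cyc1 of complex III differed by 0.34 and Ndufv2 of complex I by 0.20.

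In glycolysis 13 of 17 genes were higher and 4 lower, with a median of 0.12 and none called. An unadjusted p under 0.05 was reached by 4 (23.5%), against 8.73% of all genes, and the split was 10 higher and 7 lower both without mutant library 2 and with library weights. Pfkfb1, which sets the activator of phosphofructokinase, was at 38.9, 43.0, 57.0 and 49.8 FPKM in mutant libraries and 36.2, 34.0, 38.5 and 40.2 FPKM in control libraries (0.32, adjusted p = 0.479). Ldha, the muscle form of lactate dehydrogenase, and Pgk1 both differed by 0.27, and Pgam2 by 0.29. Eno3, the muscle enolase, showed no overlap between groups, with a difference of 0.21 (adjusted p = 0.637). Glucose uptake and glycogen genes were split, 11 higher and 11 lower, with a median of 0.0021. Fatty acid use had 15 higher and 11 lower, with a median of 0.04 that turned sign with quantile normalisation, without control library 2 and without mutant library 1. In this list Ucp3, a carrier of the mitochondrial membrane, was at 37.0 ± 10.8 FPKM in mutants and 27.5 ± 8.89 FPKM in controls (0.42, adjusted p = 0.687).

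Fat synthesis and storage genes were higher in 23 of 27 and lower in 4, with a median of 0.19, and this rested on mutant library 1. Without that library 10 were higher and 17 lower and the median was -0.04, and without mutant library 0 it was 0.42. Scd1, the desaturase of fatty acids, was at 61.3, 1152, 121 and 192 FPKM in mutant libraries and 69.9, 193, 241 and 126 FPKM in control libraries. Fasn, the fatty acid synthase, was at 8.18, 203, 15.2 and 39.0 FPKM in mutant libraries and 9.70, 25.1, 26.3 and 34.9 FPKM in control libraries. Mutant library 1 was also the highest of the 8 for adipocyte markers, whose mean level on the log2(FPKM + 1) scale was 4.06, 5.86, 4.63 and 4.71 in mutant libraries and 4.31, 5.10, 4.84 and 4.76 in control libraries. The 19 adipocyte markers in the table summed to between 2047 and 4228 FPKM in mutant libraries and between 2074 and 2819 FPKM in control libraries, with none at 0. The part of adipocyte RNA in the fat synthesis values was not tested.

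Slow fibre genes, of the fibres that work for long, were lower in 18 of 19 and higher in 1, with a median of -0.26, none called and none with an unadjusted p under 0.05. Tpm3, the slow tropomyosin, was at 124, 173, 53.9 and 117 FPKM in mutant libraries and 127, 279, 134 and 145 FPKM in control libraries (-0.58, adjusted p = 0.632). Myh7, the slow myosin heavy chain, was at 31.96, 44.5, 26.9 and 28.8 FPKM in mutant libraries and 23.2, 67.0, 44.9 and 45.5 FPKM in control libraries (-0.37, adjusted p = 0.785). Control library 1 was the highest of the 8 for both genes, and without it the median was -0.10, with 5 higher and 14 lower. It was -0.13 without mutant library 2. Fast fibre genes had 7 higher and 13 lower, with a median of -0.06, which was 0.03 without mutant library 2 and -0.12 without control library 2.

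Immediate early genes, which are switched on within minutes of a stimulus, were lower in 20 of 21 tested members and higher in 1, with a median of -0.17 and none called. Of the 21, only Fos and Cyr61 had an unadjusted limma p under 0.05, which 8.73% of all genes reached. Fos was at 1.72, 1.13, 4.45 and 1.97 FPKM in mutant libraries and 2.96, 6.43, 2.39 and 3.79 FPKM in control libraries (-0.59, adjusted p = 0.568). Cyr61, a matrix protein gene induced by serum, was at 32.6, 20.1, 48.7 and 15.7 FPKM in mutant libraries and 46.5, 47.0, 24.95 and 38.4 FPKM in control libraries (-0.50, adjusted p = 0.555). Mutant library 2 was the highest mutant library for both. Without mutant library 2 the list's median was -0.33, and without control library 1 or mutant library 3 it was -0.10 or -0.11.

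Among insulin signalling genes, 8 were higher and 12 lower, with a median of -0.03. The 3 with an unadjusted p under 0.05 (15.0%, against 8.73% of all genes, 4.41% on the lower side) were lower in mutants, namely Eif4ebp1 (-0.37), an inhibitor of translation, and the receptor genes Igf1r (-0.27) and Insr (-0.26), with adjusted p from 0.528 to 0.553. In the list of sirtuins and NAD metabolism, 10 of 17 were higher and 7 lower. Sirt3, the mitochondrial sirtuin, was at 25.3, 24.2, 29.2 and 21.0 FPKM in mutant libraries and 22.9, 19.1, 20.1 and 19.1 FPKM in control libraries (0.28, adjusted p = 0.450). Nmrk2, a nicotinamide riboside kinase of muscle, was at 76.8, 35.6, 34.1 and 37.5 FPKM in mutant libraries and 51.8, 8.38, 57.7 and 13.7 FPKM in control libraries (0.79, adjusted p = 0.654). The control libraries thus spanned a wider range than the mutant libraries, and the groups overlapped. Nampt, which limits NAD salvage, differed by 0.06.

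Medians near 0 were found for the proteasome (-0.02, 13 higher and 17 lower), the cytosolic ribosome (-0.03, 16 and 22), heat shock and chaperone genes (0.01, 16 and 12) and the interferon response (0.06, 13 and 6), and each turned sign when 1 library was left out. The heat shock genes Dnajb5 (-0.26), Hspb2 (0.30) and Hspb8 (0.26), the glycogen genes Pgm2 (0.27), Phka1 (0.23) and Ppp1r3a (-0.26) and the lipase activator gene Abhd5 (0.18) had an unadjusted p under 0.05, with adjusted p from 0.507 to 0.566. The heat shock genes make up 10.7% of their list and the glycogen genes 13.6% of the glucose uptake and glycogen list, against 8.73% of all genes. Abhd5 was the only such gene of 27 in the fat synthesis and storage list, a smaller share than over all genes.

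**Figure D4:**
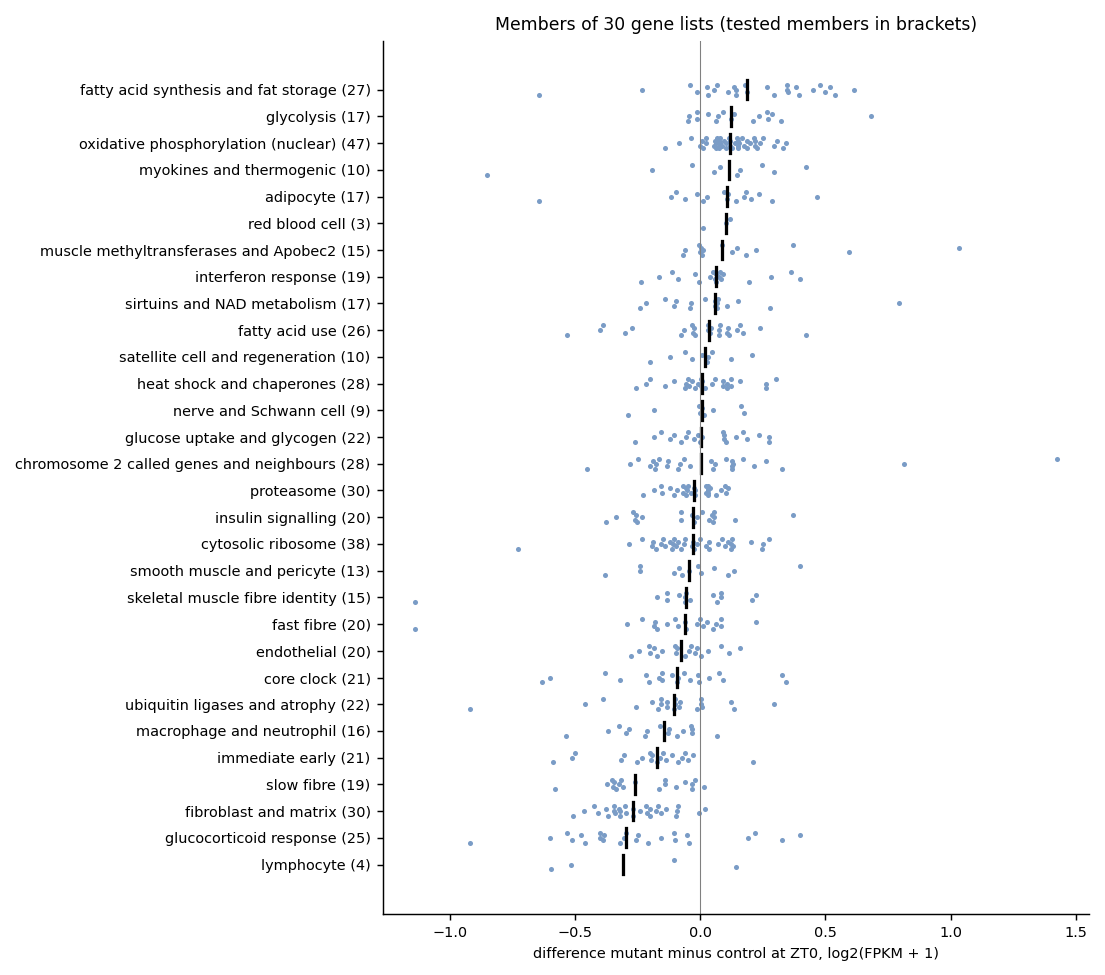
Difference between mutant and control muscle at ZT0 on the log2(FPKM + 1) scale (horizontal axis) for each tested member (points) of 30 gene lists (vertical axis, ordered by the median, black bar). Medians run from -0.31 for 4 lymphocyte genes to 0.19 for fat synthesis and storage, both of which turn sign when 1 library is left out, and the only called members are Nr6a1 and Gm13490 of the chromosome 2 list.

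Markers of the tissue and of other cell types were read in every library. Fibre markers had a mean level between 10.55 and 11.25 in mutant libraries and between 10.91 and 11.19 in control libraries on the log2(FPKM + 1) scale, and the lowest was mutant library 2. Its distance below the other libraries rested mostly on Tnnt3, the fast troponin T. Tnnt3 was at 17314, 17827, 569 and 24824 FPKM in mutant libraries and 19460, 19685, 15220 and 17534 FPKM in control libraries. Without Tnnt3, a choice made after its values were seen, mutant library 2 was still the lowest, at 10.66. Control library 2, the lowest control library, was then close to it at 10.68. Fibroblast and matrix genes were lower in 29 of 30 and higher in 1, with a median of -0.27. None was called and none had an unadjusted p under 0.05, against 8.73% of all genes. Their level was 4.46, 4.61, 5.24 and 5.21 in mutant libraries and 5.18, 4.63, 5.60 and 5.12 in control libraries. Their 31 members in the table summed to between 1282 and 2638 FPKM in mutant libraries and between 1545 and 3088 FPKM in control libraries, with none at 0. Dcn, a proteoglycan of connective tissue, was at 318, 416, 709 and 619 FPKM in mutant libraries and 714, 523, 708 and 534 FPKM in control libraries, and Col1a1 differed by -0.41. Without control library 2 the list's median was -0.09, without mutant library 0 it was -0.12, without mutant library 1 it was -0.17, and without mutant library 3 it was -0.41. The part of connective tissue in any other result was not tested.

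Endothelial genes were higher in 5 of 20 and lower in 15, with a median of -0.08. Without mutant library 2 the median was -0.19, with 2 higher and 18 lower, and without mutant library 1 it was -0.023, with 9 and 11. Pecam1 (-0.20) and Tek (-0.27), 10.0% of the list, had an unadjusted p under 0.05, against 8.73% of all genes, as did the pericyte gene Rgs5 (-0.38). Rgs5 was the only such gene of 13 in the smooth muscle and pericyte list, a smaller share than over all genes. Macrophage and neutrophil genes were lower in 15 of 16 and higher in 1, and none had an unadjusted p under 0.05. Their median of -0.14 was 0.05 without control library 2 and 0.04 without mutant library 0, and -0.25 without control library 3 or mutant library 3. Of 22 lymphocyte markers in the table only 4 reached the filter and 8 were at 0 in at least 1 library. The median of the 4, -0.31, was 0.012 without control library 1, 0.11 without control library 2 and 0.099 with library weights. The 22 summed to between 7.69 and 114 FPKM in mutant libraries and between 8.52 and 115 FPKM in control libraries, and Ptprc, the pan-leukocyte gene, was high in mutant library 1 (12.0 FPKM) and in control libraries 1 and 2 (8.93 and 11.2 FPKM). Nerve, satellite cell, smooth muscle and red blood cell lists had medians from -0.04 to 0.10, each of which turned sign when 1 library was left out.

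The libraries differed in how closely they followed their group. The correlation of mutant library 2 with the other 7 was 0.953 to 0.970, and its root mean square deviation from the group mean was 0.348, against 0.234 to 0.273 in the other mutant libraries and 0.168 to 0.200 in control libraries. The part of this spread in the number of called genes was not tested, and the same 2 genes passed without mutant library 2. Relative depth, read from steps in low values, was 0.820 to 1.37 in mutant libraries and 0.852 to 1.30 in control libraries, and absolute depth is unknown. Acta1, the actin of skeletal muscle, and the calcium pump gene Atp2a1 were listed at 0 in mutant libraries 2 and 3 and control libraries 0 and 2, the 4 of greatest relative depth, so a 0 is not read as absence and these values were treated as missing.

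**Figure D5:**
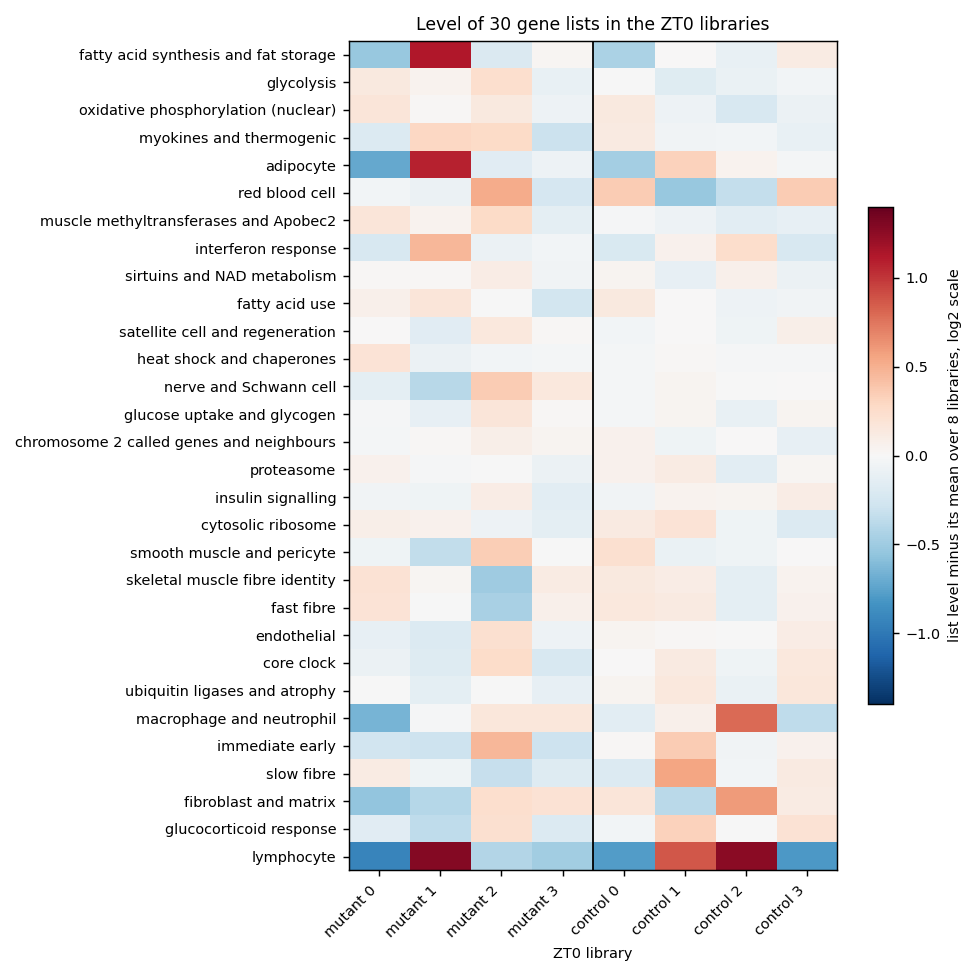
Mean log2(FPKM + 1) of each of 30 gene lists (vertical axis) in the 4 mutant (left) and 4 control (right) ZT0 libraries (horizontal axis), minus the mean of that list over the 8 libraries (colour). Mutant library 1 is the highest for fat synthesis and adipocyte genes, mutant library 2 for immediate early genes and lowest for fibre identity (with Tnnt3 in the list), and control library 1 is the highest for slow fibre genes.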

How the data were processed

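Trizol extraction, column clean-up and DNase preceded stranded mRNA libraries, per the labels' protocols, and 4 pools of 8 samples were read from 1 end over 100 cycles. No pool term was fitted, as the sources used here do not give the layout of the pools. The authors deposited 1 FPKM value per gene and library. Per the submitters' processing notes the build was mm10. Aligner, quantifier and annotation are not given in the sources used here. A further deposited table of rhythm statistics was not used here. Starts in the deposited table count from 0 and were raised by 1. Table columns were matched to groups by genotype and time, and library numbers do not identify a mouse.

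FPKM carries no counts, so no count model was used. Low values of 761 genes fell in steps, with 67.1% of values within 0.1 of a whole multiple, against 20% without steps, and the steps gave relative depth. An exact 0 was set missing where the lowest value above 0 of a gene over the 32 libraries was at least 10 FPKM. At ZT0 this touched 13 genes, Acta1, Atp2a1 and 11 small RNA genes. Differences are on log2(FPKM + 1), which understates low genes. limma 3.58.1 (R 4.3.3, trended prior, 24 residual and a median of 3.70 prior degrees of freedom) was fitted to all 32 libraries, and 2-sided p-values were adjusted by Benjamini-Hochberg over all genes tested. The fit was checked on simulated data, with changes set only in genes of a higher level than the called ones, so the check does not cover the called genes. Tables were handled with Python 3.11.15 and pandas 2.3.3.

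Members, lists and tests were chosen with earlier results of these data known. Genes are named if called, if among the 10 higher or 10 lower uncalled genes with the smallest p, a mean of at least 5 FPKM and no overlap, if among up to 3 members of a list with the smallest unadjusted p under 0.05 (the 2 highest members where none has one), if Sirt1, or if among the 5 smallest p of ZT0 against the other times. Arntl, Clock, Per1, Per2, Cry1, Dbp, Tpm3, Myh7, Pdk4, Fkbp5, Tsc22d3, Arl5a, Mbd5, Epc2, Nmrk2, Nampt, Fasn, Scd1, Col1a1, Pgam2, Eno3, Myl2 and Tnnt3 fall outside this rule and were chosen after their values were seen, as were Mga and Styk1. Of the 10 lower genes, 1 is not reported here. Xist was at most 0.012 FPKM and Ddx3y at least 26.8 FPKM in every ZT0 library, the pattern of male mice. Alternatives changed the pseudocount (0.1), the filter, the zeros, the scaling, the weights, the libraries in the fit and 1 library at a time.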

Additional observations from a re-analysis of the deposited data

Results flagged for a closer look

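In groups of 4 libraries, 14 of 226 values tested had 1 library whose gap to the nearest other passed Dixon's 95% limit for its share of the group's range. Chance flags about 1 in 20 groups. Of the flagged genes, Nmrk2, Fasn, Scd1, Tpm3 and Myl2 were chosen after their values were seen. The count can therefore not be judged against that rate.

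Mutant library 2 was the one set apart for the mean level of the immediate early list, at 3.61 on the log2(FPKM + 1) scale, and for 4 genes. These were Smco1 at 83.9 FPKM and Ndufb5 at 471.5 FPKM, which were high, and Jmy at 7.488 FPKM and Abhd5 at 18.27 FPKM, which were low. Mutant library 1 stood apart for Scd1 at 1152.0 FPKM, Fasn at 203.3 FPKM and Ptprc at 12.04 FPKM, all high, and mutant library 0 for Nmrk2 at 76.84 FPKM. Among controls, library 0 stood apart for Pcx at 23.9 FPKM and Zfp110 at 5.549 FPKM. Control library 1 stood apart for the slow fibre genes Tpm3 at 279.2 FPKM and Myl2, the slow regulatory light chain, at 593.8 FPKM, and control library 3 for Appl2 at 16.69 FPKM.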

How the results depend on the processing

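Both Nr6a1 and Gm13490 remained called under 13 of the 16 alternatives. With a mean of at least 5 FPKM neither was among the genes tested and the count was 0, with library weights it was 1 (Nr6a1) and with the ZT0 libraries alone 1 (Gm13490), where the cause was not tested. Leaving out 1 library gave between 2 and 3 calls, with Heca added without mutant library 1 and Mga without mutant library 3. With no filter on low values Styk1 was added. Against the other times, the count of 0 became 1 with no filter (Styk1) and was between 0 and 1 with 1 library left out (Nme1, without mutant library 2). The Sirt1 difference ranged from -0.32 to -0.19 with 1 library left out.

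Of 1420 values of 83 named genes, 8 turned sign, all in leave-one-out fits and none of a called gene. The ranges were -0.25 to 0.021 for Arntl, -0.077 to 0.0040 for Clock, -0.45 to 0.12 for Fkbp5, -0.16 to 0.019 for Tsc22d3, -0.34 to 1.16 for Fasn, -1.67 to 0.14 for Tnnt3 and -0.34 to 1.07 for Scd1. Medians of 10 lists kept their sign under all 16 alternatives (core clock, glucocorticoid, slow fibre, oxidative phosphorylation, glycolysis, ubiquitin ligases, immediate early, muscle methyltransferases, fibroblast and endothelial), and those of 20 turned under at least 1.

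No paired analysis was possible because the library numbers identify no mouse and the labels pair no mice across genotypes. Depth in reads is unknown, which limits genes near 1 FPKM most, the called genes included.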
